A study of Mus musculus with 3 samples.

Results

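The right hemisphere of mice with a stroke in the left hemisphere was compared with the right hemisphere of mice without a stroke. The comparison uses 2 of the 3 libraries of the series. The first, called the control, came from the right hemisphere of mice without middle cerebral artery occlusion (MCAO, the blocking of a large brain artery as a stroke model). The second, called the contralateral library, came from the right hemisphere of mice that had MCAO for 1 h, and both were taken after 3 days. The left hemisphere of the MCAO mice, called the occluded library, is shown beside them for orientation. Every library came from the middle section of the hemisphere and was made by RiboTag pull-down, in which a tagged ribosomal protein is precipitated together with the transcripts on the ribosomes. Astrocytes are named in the series title, while the driver line, strain, sex and age are not given in the sources used here. Each library pooled 3 animals, the design text adds 2 technical replicates, and the labels describe no sham operation. The table has 1 column per group, so no difference below has a replicate check, no p-value was computed, and the spread between animals is not known.

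Genes were compared where their mean over the 3 libraries was at least 20 normalised read counts, which kept 14906 of 16610 listed genes. Of these, 491 genes were at least 4 times as high in the contralateral library as in both other libraries, and they are described apart. The other 14415 genes are called brain genes here. Differences are contralateral minus control on the log2(value + 5) scale, where a difference of 1 is 2-fold and low genes are understated. Ratios are of the normalised counts themselves, with 95% exact intervals in brackets that cover counting error only.

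As background, a stroke kills tissue in the territory of the blocked artery, and the other hemisphere keeps its blood supply. Fibres of the corpus callosum join both sides, and circulating hormones and cytokines reach both. Astrocytes near a lesion become reactive and make more of the intermediate filament proteins GFAP and vimentin. In the intact brain they also take up glutamate, supply neurons with cholesterol in lipoproteins, and express many genes under the control of glucocorticoids and of the circadian clock.

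The recovered depth was 31834121 reads for the control, 33886651 for the contralateral and 25930258 for the occluded library. Both astrocyte and neuron genes were abundant. Aldoc, an astrocyte-enriched aldolase, had 83934 normalised counts in the control against 108474 on the contralateral side, and Snap25, a synaptic protein of neurons, had 49559 and 49379. The libraries thus held neuronal as well as astrocyte transcripts, and fewer cells of a type and less RNA per cell cannot be told apart in any result below.

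The contralateral library stood apart from both others by transcripts of the male germ line. The 491 genes set apart were 3.29% of the genes tested. They held 0.322% of its normalised counts, against 0.014% in the control and 0.0139% in the occluded library. Their median value was 131 normalised counts in the contralateral library, 2.91 in the control and 2.35 in the occluded library. In the contralateral library they ran from 47.9 to 1647. With 3 or fewer reads, 255 of them lay near the detection limit in the control and 288 in the occluded library. The contralateral values chose these genes, so the size of their differences is a description and supports nothing. Just inside the limit was Tdrd1, with 21.3, 109 and 27.1 normalised counts in the control, the contralateral and the occluded library, and just outside it was Slc2a5 with 83.3, 333 and 40.0.

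All 3 values are given below in the order control, contralateral, occluded. The highest genes set apart belong to spermatids, the haploid cells that become sperm. Prm2, a protamine that packs sperm DNA, had 5.81, 1647 and 2.35 normalised counts. Tnp1, a transition protein that precedes protamines on the DNA, had 2.91, 1079 and 1.18. Akap4, a scaffold of the sperm tail, had 7.75, 1351 and 1.18. Each of these was abundant in the contralateral library and under 10 normalised counts in the others. Ldhc, the sperm lactate dehydrogenase, had 7.75, 1607 and 3.53, and Crisp2, an acrosomal protein, had 1132 in the contralateral library, where the control listed the minimum of 1. Fhl4 had 28.1, 1638 and 12.9, Phf7 had 116, 1217 and 135, and Atp8b3 had 21.3, 1138 and 11.8. Tnp2 had 720 against the listed minimum in the control.

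Of a list of 26 male germ cell genes, all of which passed the mean filter, 20 were set apart. The summed level of all 26 was 18860 in the contralateral library, 2024 in the control and 1974 in the occluded library. None was at the listed minimum in the contralateral library, while 6 were in the control and 4 in the occluded library. Members near the minimum in both other libraries, such as Crisp2 with 1, 1132 and 1.18, passed the filter only through their contralateral value. The counts of this list are therefore a description and support nothing. The 6 members not set apart were below the limit of 4 times and stayed among the brain genes. Odf2, a sperm tail protein that is also part of centrioles in other cells, had 1111, 3401 and 1175 normalised counts (3.06-fold, 2.87 to 3.27). Clgn, a testis chaperone, had 211, 613 and 176, and Hspa1l had 263, 626 and 241. In these 3 genes only the contralateral library was high. Dazl, Sycp3 and Zpbp also had higher values there than in either other library. Of a list of 12 genes of the somatic cells of the testis 6 passed the filter. The Leydig cell gene Insl3 had 60.3 in the contralateral library and the steroid enzyme gene Cyp17a1 had 73.6, against the minimum of 1 for both in the control. Both genes also passed the filter only through their contralateral value. Star, which carries cholesterol into mitochondria in steroid-making cells and is also expressed in brain, had 273, 264 and 272.

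**Figure D1:**
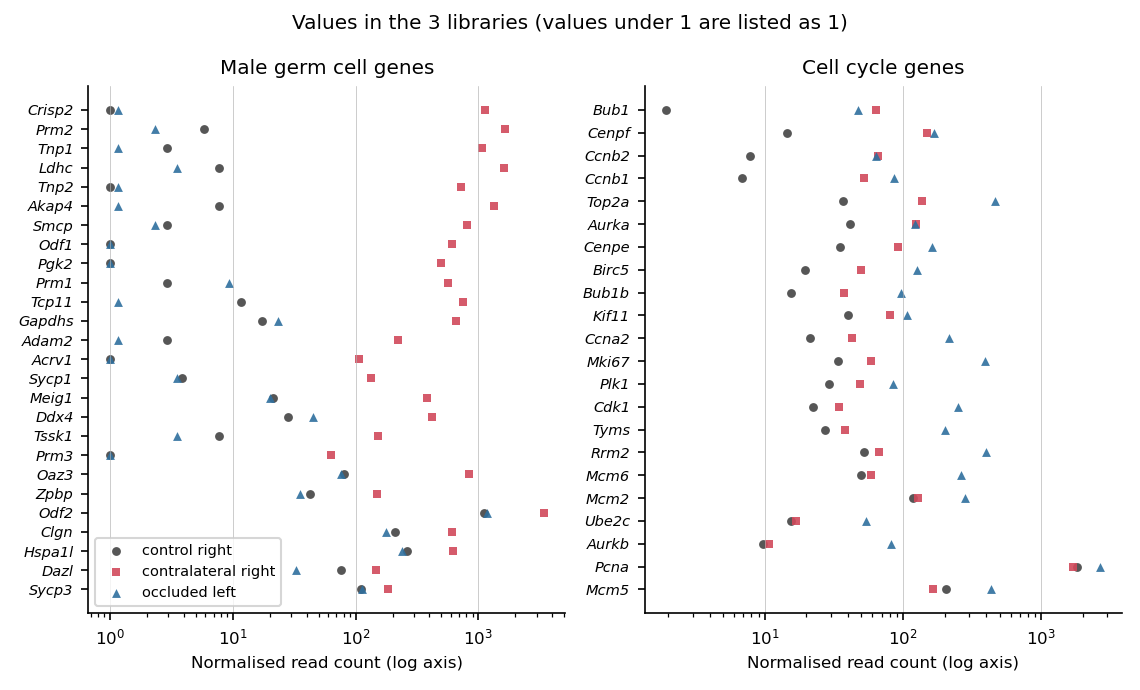
Normalised read counts (log axis) of male germ cell genes and of cell cycle genes in the 3 libraries, 1 marker per library. Every germ cell gene has its highest value in the contralateral library, from Odf2 at 3401 down to Prm3 at 63.0, while cell cycle genes such as Top2a are high in both hemispheres of the MCAO animals.

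Among the 14415 brain genes the right hemispheres differed little. The median difference was -0.02, the middle 50% of the genes lay between -0.19 and 0.18, and 74.2% were within 1.25-fold. In the contralateral library 280 brain genes (1.94%) exceeded the control 2-fold or more on this scale, and 54 (0.375%) were as far below it. Over all 14906 genes tested, those set apart included, the shares were 5.17% and 0.362%. At 1.25-fold, 2080 brain genes (14.4%) were higher and 1644 (11.4%) lower. By any amount, 47.7% were above the control and 52.3% below it. These shares are the background for the gene lists below.

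Most of the 2-fold differences were in low genes. Of the 280 higher genes 239 had under 100 normalised counts in the control and 5 had 1000 or more. The counting interval of the ratio lay above 1 for 275, and the other 5 were listed at the minimum in the control. Of the 54 lower genes 31 had under 100 in the control and 6 had 1000 or more, and the interval lay below 1 for all 54. Among the 6368 brain genes with at least 1000 in a right hemisphere, 10 were higher and 6 were lower. Of the 280, 132 exceeded the occluded library 2-fold or more as well, which is the pattern of the genes set apart at a lower limit. With genes set apart at 2 instead of 4 times both other libraries, 148 of the 280 remained. The occluded library was itself at least 2-fold above the control for 104 of the 280. On the log2(value + 5) scale, just inside the 2-fold limit was Cdca5, with 6.78, 18.6 and 45.9, and just outside it was 1700001L05Rik with 203, 412 and 141. For the lower genes these were Cenpm, with 49.4, 22.2 and 72.9, and Acer2 with 129, 62.1 and 77.6.

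**Figure D2:**
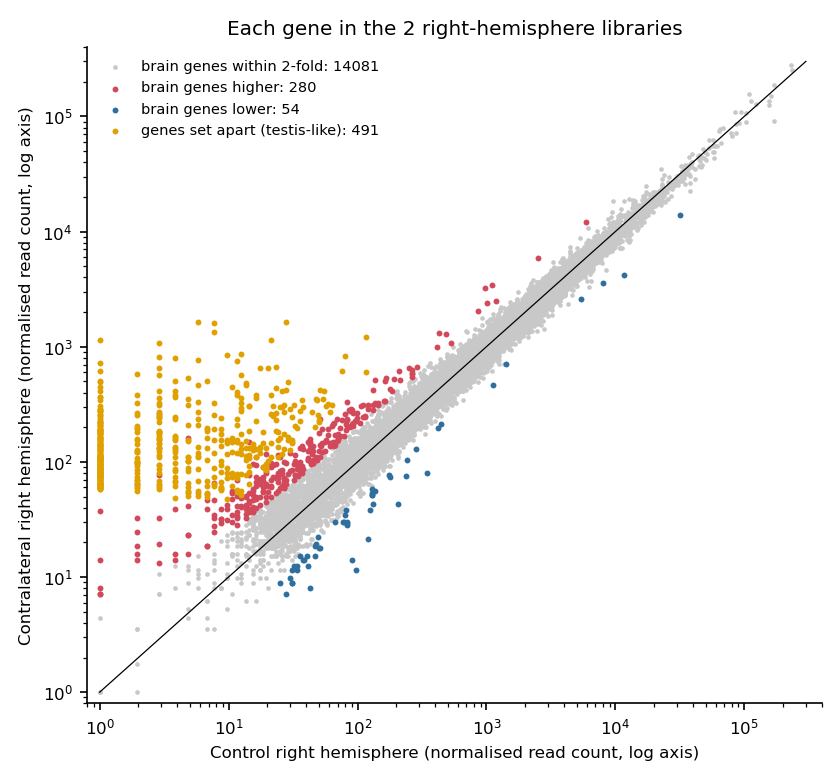
Normalised read counts of the 14906 genes in the contralateral library against the control (both log axes), 1 point per gene, with the 491 genes set apart and the brain genes at least 2-fold higher or lower marked. Most points lie along the diagonal, and the marked genes crowd at low control values.

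Reactive astrocyte genes exceeded the control in the contralateral library, at a level far below that of the occluded library. Of 12 pan-reactive genes, those described in reactive astrocytes after different injuries, 3 were higher by 2-fold or more and none lower, and 8 by 1.25-fold or more, against 14.4% of all brain genes. Their median difference was 0.46. Among the 8, the counting interval of the ratio held 1 for Cxcl10 (0.636 to 5.95), Osmr (0.903 to 2.19) and Hspb1 (0.959 to 2.14). Gfap, the astrocyte intermediate filament (chromosome 11, 102887336 to 102897200), had 5903, 12202 and 76049 normalised counts (2.07-fold, 2.01 to 2.13). Vim, encoding vimentin, had 707, 1351 and 14359 (1.91-fold, 1.75 to 2.09). Both filament genes thus stood between the control and the occluded library. Lcn2, the iron-siderophore binder lipocalin 2, had 10.7, 54.1 and 981 (5.08-fold, 2.65 to 10.7), and Timp1, an inhibitor of metalloproteases, had 2.91, 19.5 and 428 (6.72-fold, 2.02 to 35.1). These are low levels with wide intervals. Serpina3n, a secreted protease inhibitor, had 6171, 8471 and 25376 (1.37-fold, 1.33 to 1.42).

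Other genes of the same list differed by less than 1.25-fold between the right hemispheres. The hyaluronan receptor gene Cd44 had 130, 130 and 1016, and the sphingosine 1-phosphate receptor gene S1pr3 had 218, 190 and 699. The ceruloplasmin gene Cp had 314, 311 and 294. The first 2 were thus high in the occluded library alone, and Cp was level in all 3. Genes associated with the A2 state, described after ischaemia, had a median of 0.28, 2 of the 11 being higher by 2-fold or more. These were Ptx3, a secreted pattern recognition protein, with 1.94, 18.6 and 54.1 (9.62-fold, 2.35 to 84.6), and the transglutaminase gene Tgm1 with 2.91, 13.3 and 1870 (4.58-fold, 1.30 to 24.7). Both rest on few control reads. Genes associated with the A1 state, described after inflammation, had a median of 0.01, with 2 of 10 at least 1.25-fold higher. These were the complement inhibitor gene Serping1, with 141, 235 and 251, and the interferon-induced GTPase gene Gbp2, with 43.6, 71.9 and 164.

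**Figure D3:**
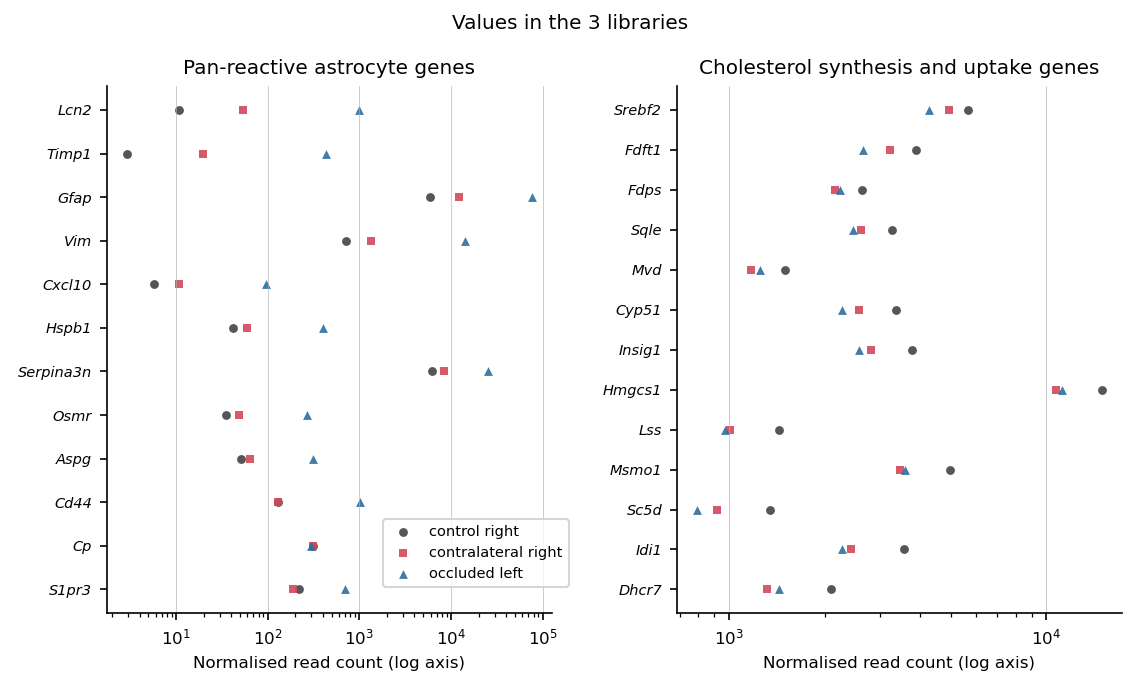
Normalised read counts (log axis) of the 12 pan-reactive astrocyte genes and of 13 of the 16 cholesterol genes in the 3 libraries, 1 marker per library. Gfap, Vim, Lcn2 and Timp1 step up from control to contralateral to occluded library, whereas every cholesterol gene shown has its highest value in the control and the hemispheres of the MCAO animals lie close together.

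STAT3, a transcription factor activated by cytokines of the interleukin 6 family, is known to act in reactive astrocytes. Stat3 itself had 1646, 2140 and 3382 normalised counts (1.30-fold, 1.22 to 1.38). Of 12 genes of this pathway 4 were at least 1.25-fold higher and 1 lower, with a median of -0.01. Over all brain genes these shares were 14.4% and 11.4%. Among the 4 higher genes, the interval of the ratio held 1 for Osmr (0.903 to 2.19) and Bcl3 (0.704 to 6.37). Pim1, a kinase gene induced by STAT signalling, had 69.7, 152 and 118 (2.18-fold, 1.64 to 2.91). Cish, a feedback inhibitor mainly of STAT5 signalling, was the lower gene, with 270, 156 and 148, 1.73-fold lower (1.43 to 2.10). Both genes had similar values in the hemispheres of the MCAO animals.

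The genes that define astrocytes were close to the control. Of 26 identity genes none differed 2-fold, 5 were at least 1.25-fold higher and none lower, and the median was 0.04. Aqp4, the water channel of astrocyte endfeet, had 8837, 8912 and 11018 normalised counts. Slc1a2, the main glutamate transporter, had 156489, 125890 and 117197, a ratio of 0.804 (0.799 to 0.810). Slc1a3, the other astrocyte glutamate transporter, had 51005, 47038 and 35442, a ratio of 0.922 (0.911 to 0.933). Both transporters were thus lower than the control by less than 1.25-fold. Aldh1l1, which encodes a folate-metabolising enzyme typical of astrocytes, had 6381, 5967 and 8750. Glul, encoding glutamine synthetase, had 113109, 135056 and 107443 (1.19-fold, 1.19 to 1.20). Sox9, a transcription factor of astrocytes, was the highest of the list by difference, with 1522, 2446 and 2623 (1.61-fold, 1.51 to 1.71), followed by the calcium-binding protein gene S100b with 9182, 13351 and 12130. Sox9 and S100b were at similar levels on both sides of the MCAO brains. Of 15 receptor genes that astrocytes use, although not only astrocytes, 13 were below the control and 3 at least 1.25-fold lower, with a median of -0.19. The lowest were the neurokinin receptor gene Tacr1, with 523, 386 and 406, the adrenergic receptor gene Adra1a, with 201, 150 and 142, and the cannabinoid receptor gene Cnr1, with 4950, 3895 and 3451.

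Cholesterol genes were lower in the contralateral library throughout the pathway. All 16 genes of cholesterol synthesis and uptake were below the control, where 52.3% of all brain genes were, and 13 were at least 1.25-fold lower, against 11.4%. None was 2-fold lower. The median difference was -0.49, and the normalised counts of the list summed to 66938 in the control, 48181 on the contralateral side and 47051 on the occluded side. Early in the pathway, Hmgcs1, which makes HMG-CoA, had 14933, 10703 and 11164 normalised counts, 1.40-fold lower (1.36 to 1.43). Idi1, which isomerises the isoprenoid unit, had 3566, 2420 and 2267. In both of these the contralateral and occluded values were close to each other and the control was high. Late in the pathway, Dhcr7, which makes cholesterol from its direct precursor, had 2096, 1318 and 1435, and Sc5d had 1350, 918 and 793. Srebf2, the transcription factor that turns these genes on when sterols are low, had 5678, 4935 and 4278, a smaller difference of 1.15-fold lower. Both MCAO hemispheres were set against the same control library, so their shared position below it is not independent evidence.

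The proteins encoded by Srebf2 and its relatives bind sterol regulatory elements in promoters, and the promoter of Hmgcs1 is shown because this gene carries the letters of a classical element. It is the 250 bases before the start of the gene on the plus strand, chr13:119690101-119690350 (GRCm38.p6, RefSeq). The capitals mark the match to TCACNCCAC, whose first base is 137 bases before the start.
Hmgcs1: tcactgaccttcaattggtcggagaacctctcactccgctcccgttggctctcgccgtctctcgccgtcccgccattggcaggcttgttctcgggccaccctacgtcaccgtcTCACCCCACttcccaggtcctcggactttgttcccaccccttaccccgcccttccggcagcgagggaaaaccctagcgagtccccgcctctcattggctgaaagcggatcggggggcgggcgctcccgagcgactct
Promoters were found for 10 of the 16 cholesterol genes, and 1 of the 10 holds this motif on either strand. The share was 1.05% over all 32851 promoters of the table and 1.22% over all 27025 gene symbols with a promoter, counted by gene as in the list. A match of letters is not a measured binding site.

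Genes driven by glucocorticoids, the adrenal stress hormones, were also lower. Of 14 such genes 11 were below the control, 6 were at least 1.25-fold lower and none was that much higher, with a median of -0.23. Sgk1, a kinase regulated by corticosteroids (chromosome 10, 21882184 to 21999903), had 5427, 2612 and 3075 normalised counts, 2.08-fold lower (1.99 to 2.17). Tsc22d3, which encodes the anti-inflammatory protein GILZ (chromosome X, 140539528 to 140600522), had 6288, 3285 and 2941, 1.91-fold lower (1.84 to 1.99). Pdk4, which inhibits pyruvate dehydrogenase, had 1216, 855 and 801, and the transcription factor gene Klf9 had 3699, 2856 and 1770. In these 4 genes the control was the highest library. Map3k6 had 58.1, 29.3 and 78.8, and in this low gene the occluded library was highest. Zbtb16, Ddit4, Errfi1, Arrdc2 and Hif3a were lower by less, with contralateral values of 627, 2211, 891, 264 and 149 against 785, 2601, 1041, 291 and 154. Cdkn1a, encoding a cell cycle inhibitor, had 330, 285 and 429. The remaining 3 genes were above the control. Fkbp5, a chaperone that dampens the glucocorticoid receptor and is itself induced by it, had 1057, 1209 and 1213 (1.14-fold). Sult1a1 had 331, 358 and 315, and Plin4 had 94.9, 109 and 113.

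Circadian clock genes showed a small shift in the same direction. Of 16 genes 14 were below the control, 4 were at least 1.25-fold lower and none was that much higher, with a median of -0.20. The time of day of tissue collection is not given in the sources used here, and its part in these values was not tested. Among the repressors of the clock, Per1 had 3026, 1844 and 1682 normalised counts, 1.64-fold lower (1.55 to 1.74), and Per2 had 704, 514 and 492. Per3 had 926, 729 and 868. Per1 is induced by glucocorticoids and by neuronal activity as well as by the clock. Cry1, another repressor, was the only member above the control by more than a few percent, with 739, 870 and 721 (1.18-fold), and Cry2 had 5825, 5154 and 4660. Ciart, a repressor with a strong daily rhythm, had 459, 291 and 294, 1.58-fold lower (1.37 to 1.82). Of the activators, Arntl was level between the right hemispheres with 901, 903 and 722, while Clock had 2883, 2306 and 2469, and Npas2 had 1463, 1279 and 1037. Of the output regulators, Dbp, among the most rhythmic genes of many tissues, had 3265, 3199 and 3219, and Nr1d1 had 4517, 4278 and 3521. These 2 were thus nearly level between the right hemispheres. Nr1d2, Tef, Hlf, Bhlhe41 and Nfil3 had 4172, 10616, 6787, 2335 and 168 in the contralateral library against 4932, 12324, 8483, 2531 and 178 in the control.

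The clock activators bind E-boxes. The promoters of Per1 and Ciart are shown because these 2 genes had the largest differences of the list and both hold the E-box CACGTG, marked in capitals, which reads the same on both strands. Each is the 250 bases before a RefSeq transcript start (GRCm38.p6), for Per1 on the plus strand at chr11:69098699-69098948, inside the annotated gene, and for Ciart on the minus strand at chr3:95882229-95882478, with another transcript starting slightly upstream. The E-box begins 166 bases before the start in Per1, and the nearest of 3 begins 44 bases before it in Ciart.
Per1: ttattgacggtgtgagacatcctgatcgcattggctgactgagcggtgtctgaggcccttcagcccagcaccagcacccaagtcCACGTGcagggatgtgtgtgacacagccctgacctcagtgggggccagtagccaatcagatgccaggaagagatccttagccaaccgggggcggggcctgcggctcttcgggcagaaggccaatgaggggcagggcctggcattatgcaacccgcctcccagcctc
Ciart: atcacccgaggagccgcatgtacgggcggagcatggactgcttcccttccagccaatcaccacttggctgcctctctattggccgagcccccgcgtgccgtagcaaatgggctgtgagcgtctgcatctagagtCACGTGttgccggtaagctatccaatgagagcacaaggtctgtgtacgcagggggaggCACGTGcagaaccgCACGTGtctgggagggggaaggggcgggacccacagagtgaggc
Of the 15 clock genes with a promoter in RefSeq, 5 hold this E-box, against 6.86% of all gene symbols and 6.02% of all promoters.

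Immediate early genes, which neurons induce within minutes of activity, were mixed. Of 17 genes 8 were at least 1.25-fold lower and 3 higher, with a median of -0.27. Fosb had 334, 173 and 185 normalised counts, 1.93-fold lower (1.62 to 2.31), and Egr4 had 692, 418 and 400. Nr4a1 had 2738, 1869 and 1782. In these genes the hemispheres of the MCAO animals again lay close together. Fos had 733, 637 and 909, and Arc, which acts at synapses, had 3317, 3195 and 3070. Btg2, an antiproliferative gene, went the other way with 735, 1139 and 1076 (1.55-fold, 1.42 to 1.70).

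Among genes of the innate immune response the largest differences were in low members. Of 16 interferon-stimulated genes 2 were at least 2-fold higher and 7 at least 1.25-fold higher, with none lower by that much and a median of 0.22. Isg15, a ubiquitin-like modifier (chromosome 4, 156199424 to 156200818), had 9.69, 42.6 and 107 normalised counts (4.40-fold, 2.20 to 9.75). Irf7, a transcription factor that amplifies interferon production, had 13.6, 35.5 and 84.7 (2.62-fold, 1.39 to 5.21). Ifitm3, which blocks virus entry, had 102, 161 and 405, and Bst2, which tethers budding virus, had 58.1, 92.3 and 233. Each of these 4 stood between the control and the occluded library. The more abundant Ifit3, chosen after its values were seen, was nearly level between the right hemispheres with 802, 891 and 1457. The promoter of Isg15, the member with the largest difference, is shown with its interferon response element, searched as GAAA, any 2 bases and GAAA. It is the 250 bases before the start on the minus strand, chr4:156200819-156201068 (GRCm38.p6, RefSeq). The capitals cover 3 overlapping matches, the nearest of which begins 66 bases before the start.
Isg15: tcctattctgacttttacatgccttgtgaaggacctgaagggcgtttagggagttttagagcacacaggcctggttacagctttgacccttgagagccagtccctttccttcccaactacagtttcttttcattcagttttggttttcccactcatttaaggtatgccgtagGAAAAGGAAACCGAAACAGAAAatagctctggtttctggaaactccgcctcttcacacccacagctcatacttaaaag
On either strand, 7 of the 13 interferon genes with a promoter in the table hold this motif, against 3.46% of all gene symbols and 2.98% of all promoters.

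Microglia genes were close to the control with a few exceptions. The median over 20 genes was 0.03, and 2 of them were higher by 2-fold or more, whereas the occluded library had a median of 1.44 above the same control. Aif1, encoding the microglial protein IBA1, had 79.4, 259 and 159 normalised counts (3.26-fold, 2.55 to 4.22) and was highest in the contralateral library. Tyrobp, the signalling adaptor of microglial receptors, had 92.0, 204 and 729 (2.22-fold, 1.74 to 2.85). The chemokine receptor gene Cx3cr1 was lower, with 1591, 1184 and 3464. Csf1r, the receptor on which microglia depend for survival, differed by less than 1.25-fold with 2157, 2398 and 5564, and was chosen after its values were seen. Aif1 is known to be expressed in the testis too, and the part of testis transcripts in its value was not tested.

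All 10 macrophage genes that passed the filter, of 14 listed, were above the control, where 47.7% of all brain genes were, and 7 of them by 1.25-fold or more. Their median was 0.42. Msr1 with 4.84, 5.32 and 519, Gpnmb with 58.1, 63.9 and 471, and Cd14 with 49.4, 61.2 and 438 were above the control by less than 1.25-fold. These genes were chosen after their values were seen, and Msr1 passed the filter only through its occluded value. Spp1, encoding osteopontin, had 251, 487 and 8736 normalised counts (1.94-fold, 1.67 to 2.26). Cd68, a lysosomal protein of phagocytes, had 92.0, 147 and 818, and Lyz2, encoding lysozyme, had 102, 158 and 806. All 3 were far higher in the occluded library. Over the list, normalised counts summed to 764 in the control, 1209 on the contralateral side and 13775 on the occluded side. Of 11 complement genes 4 were at least 1.25-fold higher and 1 lower. C4b, made by astrocytes and microglia, had 1525, 2254 and 6686, and C3, the central component, had 49.4, 32.8 and 74.1. MHC class I genes had a median of 0.00, with 1 of 9 at least 1.25-fold higher and 1 lower. These were B2m, the light chain, with 1922, 2481 and 3645, and the peptide transporter gene Tap2 with 903, 597 and 1054.

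Some stress genes were higher. The metallothionein genes Mt1 and Mt2, which bind zinc and copper, had 11619, 18237 and 24778 (1.57-fold) and 5286, 8726 and 11826 (1.65-fold). Glucocorticoids and cytokines both induce these genes. Hmox1, which breaks down heme, had 220, 331 and 693. These were the 3 of 10 metallothionein and iron genes that were higher by 1.25-fold or more, and the list had a median of 0.23. The iron exporter gene Slc40a1 was lower, with 273, 211 and 275. Of 14 heat shock genes 13 were above the control and 5 by at least 1.25-fold, with a median of 0.27. Of 13 genes of the integrated stress response 3 were higher and 2 lower by that size, with a median of 0.11. The lower genes were the transcription factor genes Atf3, with 29.1, 15.1 and 126, and Cebpb, with 103, 62.1 and 147. Centring the differences within classes of gene span, an alternative chosen after seeing the data, gave medians of 0.16 for heat shock and 0.0098 for integrated stress genes. The median was 0.05 for 18 genes of glycolysis and hypoxia.

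Most of the listed cell division genes stood above the control, while Cenpm, outside the list, was lower with 49.4, 22.2 and 72.9 normalised counts. None of 22 genes of the cell cycle was set apart, but that rule cannot pick genes that are about as high in the occluded library. Of the 22, 9 exceeded the control 2-fold or more and none was lower by that much. The share was 1.94% of all brain genes and 5.17% of all genes tested. The 9 genes had under 100 normalised counts in the control, as had most of the higher brain genes, so neither share is matched to their level. Several of the 9, among them Bub1, Ccnb1, Ccnb2 and Cenpf, had under 20 in the control. They passed the mean filter only through the MCAO hemispheres, so the count of 9 is a description and supports nothing. The median difference of the 22 genes was 0.78, and that of the occluded library was 2.43. Bub1, a checkpoint kinase at the kinetochore (chromosome 2, 127800197 to 127831859), had 1.94, 63.9 and 47.1 normalised counts (33.0-fold, 8.80 to 278). Cenpf, a kinetochore protein, had 14.5, 148 and 167 (10.2-fold, 6.01 to 18.6). The cyclin genes Ccnb1 and Ccnb2, which drive entry into mitosis, had 6.78, 52.3 and 85.9, and 7.75, 65.7 and 63.5. In these 4 genes both MCAO hemispheres were high and the control was low. Top2a, which untangles DNA, had 36.8, 137 and 461 (3.71-fold, 2.59 to 5.44). Other members were close to the control. The mitotic kinase gene Aurkb had 9.69, 10.6 and 82.3, and Ube2c, which marks mitotic proteins for breakdown, had 15.5, 16.9 and 54.1. Among genes of DNA synthesis, Tyms had 27.1, 38.2 and 202, and Rrm2 had 52.3, 67.4 and 400 in the 3 libraries. Pcna, the sliding clamp of the polymerases, had 1823, 1701 and 2678, and the helicase subunit gene Mcm5 had 203, 166 and 433. These 6 genes were chosen after their values were seen. Mki67, the common marker of cycling cells, had 33.9, 58.6 and 395 (1.73-fold, 1.13 to 2.68), and for Cdk1, the mitotic kinase, with 22.3, 34.6 and 251, the interval of the ratio held 1 (0.905 to 2.72). These 2 were also chosen after their values were seen.

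The highest brain genes by difference included further genes of mitosis. Kif2c, a kinesin that takes microtubules apart at kinetochores, had 4.84, 161 and 76.5 normalised counts (33.2-fold, 14.0 to 103) and was the highest of all. Kif18b, Kif15, Ncapg and Cep55, which act in spindle assembly, chromosome condensation and the final cut between daughter cells, had 32.8, 55.9, 41.7 and 24.8 in the contralateral library. Their control values were 2.91, 10.7, 4.84 and 1.94, and their occluded values 74.1, 71.8, 60.0 and 49.4. The 20 highest genes also held several that are known from testis or motile cilia, among them Dnah7a, a dynein heavy chain, with 19.4, 117 and 40.0, Iqcd with 18.4, 89.6 and 36.5, and Ggn with 21.3, 97.6 and 24.7. Ddias had 16.5, 109 and 32.9, and Tsacc had 11.6, 69.2 and 40.0. H19, an imprinted noncoding RNA, had 1.94, 32.8 and 153. Ly6k, Stpg1, Mroh8, Ccdc163 and Fam205a1 made up the rest, with contralateral values of 39.0, 94.0, 115, 47.0 and 37.3. Male germ cells divide and undergo meiosis, so they express mitotic genes as well. The summed level of the 26 germ cell genes was high in the contralateral library alone. Kif2c was highest in the contralateral library, and Kif18b, Kif15, Ncapg and Cep55 were highest in the occluded library. The part of germ cell RNA in the contralateral values of the genes in this paragraph and of the cell cycle list was not tested.

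Ependymal genes, those of the ciliated cells that line the ventricles, were above the control in all 8 brain genes tested, with 3 at least 2-fold higher and a median of 0.59. Rsph1, a radial spoke protein of cilia and of sperm tails, had 138, 509 and 178 normalised counts (3.70-fold). Fam183b had 41.6, 108 and 35.3, and Mia had 8.72, 29.3 and 22.3. Rsph1 and Fam183b were high in the contralateral library alone, as were the germ cell genes set apart. The part of germ cell transcripts in the ependymal values was not tested. The median moved to 0.28 with a stricter limit that set apart every gene at least 2 times both other libraries. Foxj1, the master regulator of motile cilia, had 259, 307 and 327. A ninth member, Enkur, with 24.2, 110 and 23.5, had been set apart.

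The listed long noncoding RNAs and the ribosomal RNA precursor were lower than in the control. H19, a noncoding RNA outside this list, went the other way with 1.94, 32.8 and 153 normalised counts. All 8 RNAs of the list were below the control, 3 at least 2-fold, against 0.375% of all brain genes, and the median was -0.72. Meg3, an imprinted nuclear RNA of neurons (chromosome 12, 109540996 to 109571729), had 11682, 4220 and 10251 normalised counts, 2.77-fold lower (2.68 to 2.86). Miat, another neuronal nuclear RNA, had 1121, 462 and 857, 2.42-fold lower (2.18 to 2.69). Rn45s, the precursor of ribosomal RNA, had 31857, 13797 and 27300, 2.31-fold lower (2.27 to 2.35). In all 3 the contralateral library was the lowest, and the occluded library was nearer to the control. Snhg11 had 2453, 1368 and 2008, and Malat1, a nuclear speckle RNA, had 1007, 659 and 1030. Neat1, the scaffold of paraspeckles, had 562, 452 and 1507. Rian, from the same imprinted cluster as Meg3, had 7624, 7014 and 5986, a much smaller difference, and Mirg, also of that cluster, had 51.3, 38.2 and 44.7. These RNAs are not known as templates for protein, and how they entered the ribosome pull-down was not tested.

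Genes for translation and respiration were mostly higher by a small amount. Of 81 cytosolic ribosomal protein genes, a list added after the values were seen, 79 were above the control and 31 by at least 1.25-fold, with a median of 0.30. Rps12 had 1281, 2042 and 1863 normalised counts (1.59-fold) and Rpl38 had 2116, 3199 and 3197 (1.51-fold). Of 18 nuclear genes of oxidative phosphorylation 17 were above the control and 10 by at least 1.25-fold, with a median of 0.34. Uqcrq, a small subunit of complex III, had 1575, 2293 and 2241 (1.46-fold, 1.37 to 1.55), and Cox6c, of cytochrome oxidase, had 3062, 4311 and 4155. Atp5b, the catalytic subunit of ATP synthase, had 59449, 55167 and 64965 (0.928) and was the member below the control.

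Over all brain genes with a position in the annotation, the difference went with the length of the gene. Genes were sorted by span into 10 classes of equal size. In the class of shortest genes, with a median span of 2867 bases, the median difference was 0.16, and in the class of longest, with a median span of 238081 bases, it was -0.14. It was lower in each successive class. The occluded library, set against the same control, gave medians of 0.22 and -0.18 in these classes. Centring each class on its own median moved the ribosomal protein median from 0.30 to 0.15, the immediate early median from -0.27 to -0.43 and the interneuron median from 0.28 to 0.13, and the cholesterol median stayed at -0.49. The part of RNA quality in this pattern was not tested.

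**Figure D4:**
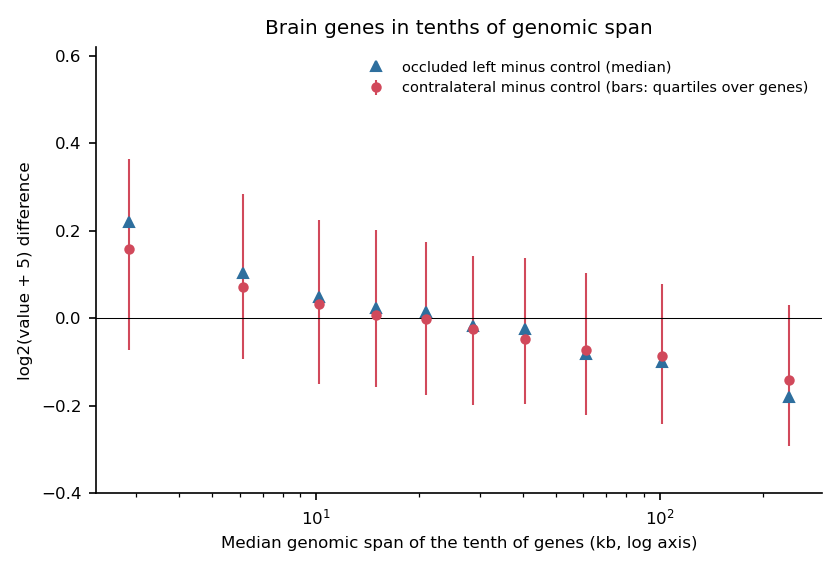
Median log2(value + 5) difference from the control (vertical axis) against the median gene span in kb (log axis) for 10 classes of the brain genes by span, for the contralateral (circles, bars from the lower to the upper quartile over genes) and the occluded library (triangles). Both start above 0 at the shortest genes and end below 0 at the longest.

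Markers of brain regions and vessels differed too, and how the middle sections were placed is not given beyond their name. Olfactory bulb genes were mostly lower, with 7 of 8 below the control, 3 at least 2-fold lower and a median of -0.64. Eomes, a transcription factor of bulb projection neurons (chromosome 9, 118478186 to 118486132), was the lowest of all brain genes, with 96.9, 11.5 and 28.2 normalised counts, 8.40-fold lower (4.69 to 16.3). Doc2g had 207, 43.5 and 51.8, 4.77-fold lower (3.48 to 6.64), and Cdhr1, a cadherin of mitral cells, had 938, 539 and 500. Sp8, of bulb interneurons, had 129, 57.7 and 69.4. In each the control was high and both MCAO hemispheres were low. Calb2 and Th, chosen after their values were seen, differed by less than 1.25-fold between the right hemispheres. Calb2 was above the control, with 1351, 1427 and 1324, and Th had 524, 490 and 363. The part of dissection in these values was not tested.

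All 11 cortical neuron genes were below the control, with a median of -0.28. Tbr1, a transcription factor of deep-layer neurons, had 2514, 1573 and 2011. Of 14 striatal genes 12 were below the control, with a median of -0.27 against -1.51 in the occluded library. Drd1, the dopamine receptor of the direct pathway, had 1444, 1090 and 487, so the contralateral value was nearer to the control. Of 9 hippocampal genes 7 were above the control and 3 by at least 1.25-fold, such as Spink8 with 19.4, 43.5 and 54.1. Among 19 general neuron genes 16 were below the control, 4 by at least 1.25-fold, with a median of -0.17. Of 11 interneuron genes 10 were above it, with a median of 0.28. Thalamic genes had a median of -0.17, hypothalamic genes -0.00, cholinergic and monoamine genes -0.20 and late activity genes -0.16. Oligodendrocyte genes had a median of -0.08, their precursors -0.11, and progenitor and neuroblast genes 0.12.

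Genes of the meningeal fibroblasts, which cover the brain, were all above the control, and 9 of 12 by 1.25-fold or more. Their median was 0.56. The occluded library had a median of 0.00 against the same control. Ogn, a small proteoglycan, had 179, 331 and 148 normalised counts (1.85-fold, 1.54 to 2.22). Aldh1a2, which makes retinoic acid, had 395, 658 and 400 (1.67-fold), and Ptgds, encoding prostaglandin D synthase, had 22705, 34701 and 22800 (1.53-fold). Igf2, a growth factor, had 4425, 6803 and 4423 (1.54-fold). In these 4 genes the contralateral library stood above the others. The summed level of the list was 30459, 45936 and 30585. How much of the covering membranes stayed on each tissue is not known, and its part in these values was not tested.

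Choroid plexus genes, from the tissue that makes cerebrospinal fluid, did not move together. Of 15 genes 9 were above the control and 6 below, with 5 higher and 3 lower by at least 1.25-fold. Ttr, the transthyretin gene and by far the most abundant, had 10949, 14272 and 8192 normalised counts (1.30-fold). Otx2, the transcription factor of the tissue, had 223, 322 and 254, and Sostdc1 had 58.1, 104 and 58.8. Calml4 had 32.0, 67.4 and 70.6, and F5, encoding a coagulation factor, had 115, 152 and 121. Folr1, Clic6, Kcne2 and Kl were higher by less than 1.25-fold, with 94.9, 2217, 41.7 and 823 against 78.4, 1981, 37.8 and 804. The water channel gene Aqp1 was lower, with 125, 87.8 and 63.5, as was the prolactin receptor gene Prlr, with 279, 194 and 211. Cldn2, Kcnj13, Slc4a5 and Tmem72 had 86.1, 146, 82.5 and 15.1 against 97.8, 172, 92.0 and 22.3.

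Vessel genes were lower. Of 14 endothelial genes 12 were below the control and 7 by at least 1.25-fold, with a median of -0.29, and of 10 mural cell genes, those of pericytes and smooth muscle, 8 were below and 5 by at least 1.25-fold, with a median of -0.30. Tek, the angiopoietin receptor gene, had 70.7, 33.7 and 75.3 normalised counts, 2.10-fold lower (1.40 to 3.19), and Slco1a4, a transporter of the blood-brain barrier, had 162, 104 and 182. Anpep had 79.4, 48.8 and 67.0 and Abcc9, a channel subunit of pericytes, had 126, 79.9 and 138. In these 4 genes the contralateral library was the lowest. Y-linked genes were present in every library, Ddx3y with 1679, 1397 and 1775, Eif2s3y with 517, 437 and 640, Kdm5d with 346, 340 and 309, and Uty with 279, 201 and 262, so each library held transcripts of male mice.

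**Figure D5:**
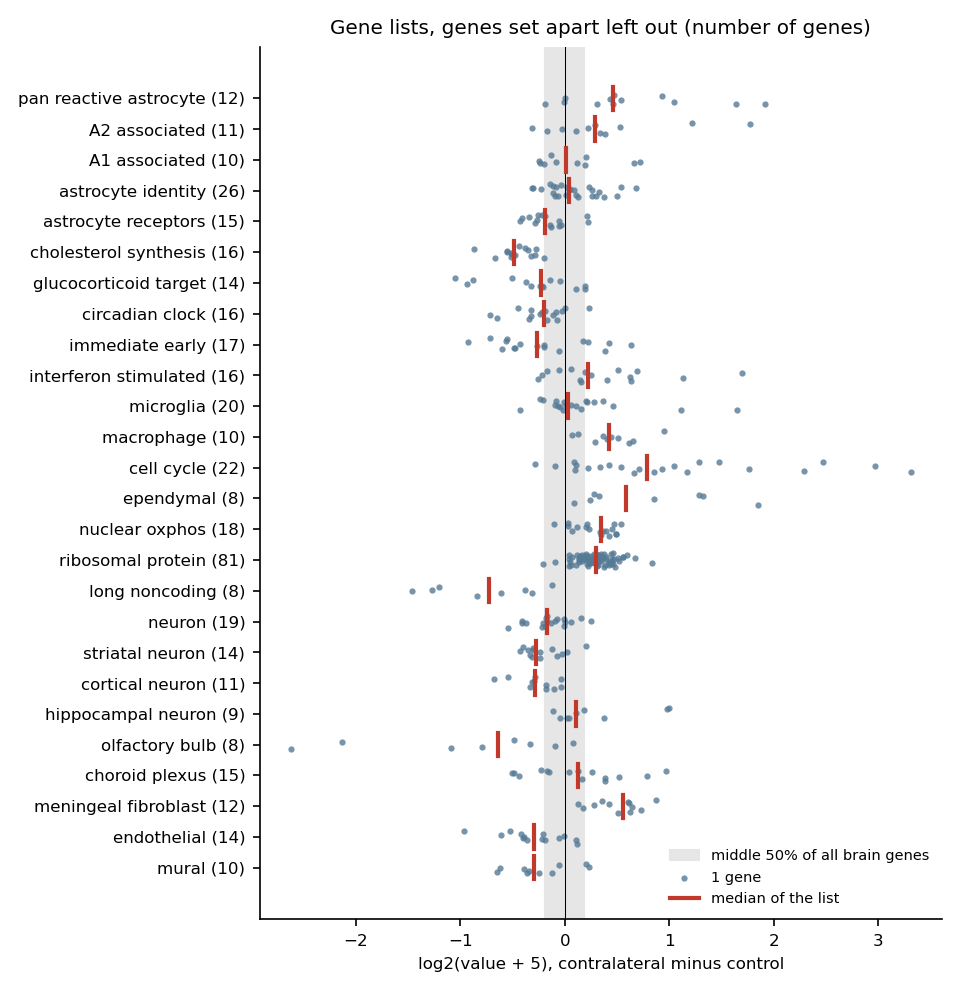
Log2(value + 5) difference, contralateral minus control, for each brain gene of 26 lists (points, number of genes in parentheses), with the list median (red bar) and the middle 50% of all brain genes (grey band). The cholesterol list lies wholly to the left of 0, the meningeal fibroblast list wholly to the right, and the cell cycle list reaches farthest right.

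Among the other lowest genes, Zfp382, a zinc finger repressor, had 346, 79.9 and 232 normalised counts, 4.33-fold lower (3.43 to 5.52), and Adnp, a chromatin protein, had 238, 75.4 and 120, 3.16-fold lower (2.46 to 4.09). Prss56 had 125, 38.2 and 42.3, and Pakap had 132, 43.5 and 28.2. The remaining genes of the 20 lowest had 28.1 to 130 normalised counts in the control. They were Chn1os3, Cnr2, Plag1, Slc24a5, Bdkrb2, Galr1, Gstp2, Sema3g, Amica1, Tmprss7, Ftx and Frmd7. Cnr2, the cannabinoid receptor of immune cells, had 28.1, 7.10 and 45.9, and Ftx, a noncoding RNA near Xist, had 130, 51.5 and 72.9.

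Some abundant genes also differed, and those in this paragraph were chosen after their values were seen. Lrp1, a large receptor for lipoproteins and proteases on neurons and astrocytes (chromosome 10, 127538157 to 127621148), had 168402, 90969 and 136623 normalised counts, 1.85-fold lower (1.84 to 1.87). Slc36a1, an amino acid transporter, had 8019, 3568 and 4943. Txnip, an inhibitor of thioredoxin that responds to glucose, had 1099, 619 and 514. Higher were Apod, a lipocalin that carries lipids, with 2512, 5866 and 6824 (2.33-fold, 2.23 to 2.44), and Sat1, the enzyme that starts polyamine breakdown, with 1004, 2411 and 2922. Hes5, a Notch target gene, had 486, 1291 and 903. Apod and Sat1 were highest in the occluded library, whereas Hes5 was highest in the contralateral one. Akap12, a kinase scaffold, had 967, 3204 and 1427, and Nasp, a histone chaperone that is abundant in testis, had 428, 1325 and 614.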

How the data were processed

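Ribosome-bound RNA of 3 pooled libraries was measured, 1 per group. The deposited values are a signal, namely read counts that the authors divided by a size factor per library, with values below 1 listed as 1. Named without their roles in the submitters' processing notes are the build mm10, DESeq2 (no version), R 3.3.1, Partek 6.6, HISAT2 2.0.11 and CASAVA 1.8. Whether strand was used in counting is not given in the sources used here. Overlapping and antisense genes, and near-identical families, can therefore share reads. Ribosomes were isolated by RiboTag pull-down and libraries made with a TruSeq kit, per the labels' protocols.

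The value of 1 read was 0.969 in the control, 0.887 in the contralateral and 1.18 in the occluded library. Of the values above 1, 99.9% were whole reads within 0.1 read. The recovered reads gave exact Clopper-Pearson 95% intervals of the ratios, which hold counting error alone, because reads that carry no molecular identifier may repeat a molecule. The minimum of 1 was listed for 665 genes in the control, 47 in the contralateral and 583 in the occluded library.

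Columns were matched to samples by their descriptions, and 0 columns of values were left out. Differences used a pseudocount of 5 and genes whose 3 values averaged 20 or more. Genes at least 4 times both other libraries in the contralateral one were set apart. A call is 2-fold on the log2(value + 5) scale, and 1.25-fold is a smaller size. With 1 library per group no count test could be run. The calculation was tested on simulated reads.

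The members, the 50 gene lists and the comparison were chosen with earlier results of these data known. Named genes were the 20 highest and 20 lowest brain genes with at least 20 normalised counts in a right hemisphere, leaving out predicted genes and hosts of small RNAs. To these were added, of the genes set apart, the 6 highest and the 6 with the largest differences. Each list described gave its 5 members of largest difference or fewer, with 10 astrocyte genes and all clock, glucocorticoid, choroid plexus and Y-linked genes. Others were chosen after their values were seen: those marked so in the text, the 6 male germ cell genes not set apart, Star, Snap25, Cd44, S1pr3, Cp, Hmgcs1, Srebf2, Nr4a1, Fos, Arc, Foxj1, Neat1, Rian, Mirg and Atp5b. Some members of the lists are counted but not reported here by name. Genes beside a limit were taken by their distance from it. Positions came from RefSeq for GRCm38.p6, where 15909 of 16610 symbols were found, and promoters from the same source. Alternatives were other pseudocounts, filters, scalings, limits and call sizes. Python 3.11.15, numpy 2.4.6, pandas 2.3.3, scipy 1.17.1 and matplotlib 3.10.9 were used.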

Additional observations from a re-analysis of the deposited data

How the results depend on the processing

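With 1 library per group no library could be left out. No paired analysis was possible because each group has 1 library. Of the alternative values of counts and list medians, 485 stayed close to the reported ones, 31 moved and 1 reversed. Equal totals moved the median difference of brain genes by 0.04. Setting the median ratio, whose log2 was -0.03, to 1 raised that difference by about as much as this log2 lay below 0. The 280 higher brain genes became 167 with a pseudocount of 20, 155 with a mean of at least 50, 148 when genes at 2 times both other libraries were set apart, 771 with none set apart, and 765 at 1.5-fold. The 54 lower genes became 27 with a pseudocount of 20, 112 without a filter, 28 with a mean of at least 50, and 336 at 1.5-fold. The genes set apart numbered 1000 without a filter and 238 with a mean of at least 50. With a pseudocount of 20 the medians of the pan-reactive, ependymal and cell cycle lists were 0.35, 0.42 and 0.57. The ependymal median was 0.33 without a filter, 0.28 with a mean of at least 50 or with genes set apart at 2 times, and 0.85 at 8 times or with none set apart. Without a filter the A1 median was 0.12, that of the olfactory bulb -0.94, and that of the testis somatic list reversed to -0.051. With none set apart the testis somatic median was 0.88 and the male germ cell median 4.53. The noncoding median was -0.84 with a mean of at least 50. Centring within 10 classes of gene span, chosen after seeing the data, gave medians of 0.13 for interneuron, 0.17 for erythroid, 0.44 for meningeal fibroblast, -0.43 for immediate early, 0.16 for heat shock, 0.0098 for integrated stress and 0.15 for ribosomal protein genes. Alternatives with fewer genes tested change a list's members, and the cause of the other moves was not tested. Depth limits the low genes, where few control reads leave wide intervals.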

Other observations

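Relatives of housekeeping genes that are made in the testis appeared among the genes set apart, and they were chosen after their values were seen. Pgk2, a phosphoglycerate kinase of sperm, had 492 normalised counts on the contralateral side, where both other libraries listed the minimum of 1. Gapdhs, the sperm form of the glycolytic dehydrogenase, had 17.4 in the control, 654 in the contralateral and 23.5 in the occluded library. Cetn1, a centrin, had 2.91, 184 and 1 in the same order, and Rpl39l, a ribosomal protein, had 1.94, 99.4 and 2.35. Rpl22, the gene of the protein that carries the tag in RiboTag mice, had 2466, 2655 and 3205. Of 12 lymphocyte and 8 neutrophil genes 1 each passed the filter. The haemoglobin and heme synthesis list had a median difference of 0.33 over 5 genes, and 18 genes of the extracellular matrix had a median of -0.04. The list of 6 genes that vary between mouse strains had a median of 0.14, and none of its members differed by 1.25-fold.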
